A study of Mus musculus with 20 samples.

Results

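The glutathione S-transferases described here are 10 genes of the mouse liver, namely Gstt1 of the theta class, Gstm1, Gstm2, Gstm3, Gstm4 and Gstm6 of the mu class, Gsta2, Gsta3 and Gsta4 of the alpha class, and Gstp1 of the pi class. They were found by their gene symbols among the 45306 genes of a liver RNA-seq table, and all 10 were present and passed the filter on low counts that left 15616 genes. The genes were selected on fitted expression values of the same 20 libraries, and no record says which comparison was used, so every value of these genes below is a description and none is a test. Liver RNA was sequenced from 20 C57BL/6 mice, with 1 library per mouse and 5 mice per group. Control mice were wild type and kept at room temperature, CE mice were wild type and exposed to cold (4 °C for 3 h per day over 3 weeks), Sirt2-/- mice carried a CRISPR deletion of exons 5 to 7 of Sirt2 and were kept at room temperature, and Sirt2-/-/CE mice carried the same deletion and had the same cold exposure. The mice were 5 weeks old when they were divided into groups. The deletion was present in the whole animal and not in the liver alone, the labels give no batch, and no value distinguishes a smaller number of cells from less RNA per cell.

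Glutathione S-transferases join the tripeptide glutathione to electrophiles such as epoxides, quinones and the aldehydes of oxidized lipids, which makes these compounds more soluble and ready for export. Hepatocytes hold large amounts of the alpha, mu and pi enzymes. Transcription of many of the genes is known to respond to Nrf2, which binds antioxidant response elements, and to the xenobiotic receptors CAR and PXR, and the pi enzyme of mouse liver is known for a higher level in males.

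Total counts per mouse ranged from 35499796 to 53917339, and the Control range (44222098 to 53917339) lay above the Sirt2-/- range (36004846 to 42142304). Sirt2, the targeted gene, had 42.3 ± 1.3 CPM (counts scaled to library size by the TMM method, mean ± SD, n = 5) in Control, 46.6 ± 6.08 in CE, 22 ± 5.01 in Sirt2-/- and 21.6 ± 3.42 in Sirt2-/-/CE, with no overlap between wild-type and knockout mice. The sum of 8 hepatocyte markers was 78100 to 179000 CPM in all mice. Xist was at most 0.359 CPM in every library and Ddx3y, a Y-linked gene, at least 26 CPM. A clock score, the mean log2 CPM of Nr1d2, Ciart, Per3, Tef and Dbp with that of Clock, Npas2 and Arntl subtracted, ranged from 4.61 to 6.64 in Control, from -1.25 to 5.69 in CE, from -3.21 to 5.44 in Sirt2-/- and from -1.42 to 4.14 in Sirt2-/-/CE.

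The genes lie in clusters on GRCm38, in the GENCODE vM21 annotation. The mu cluster on chromosome 3 holds, in order, Gstm6 (chr3:107938847-107943749), Gstm3 (chr3:107963696-107969283), Gstm2 (chr3:107981702-107986453), Gstm1 (chr3:108012255-108017973) and Gstm4 (chr3:108040408-108044894), all on the reverse strand. Gstt1 lies on chromosome 10 (chr10:75783813-75798584, reverse strand) between Gstt3 and Gstt4. Gsta4 (chr9:78182774-78209349, forward strand) and Gsta2 (chr9:78331018-78355788, reverse strand) lie at the ends of an alpha cluster, while Gsta3 lies apart from it on chromosome 1 (chr1:21240589-21265661, forward strand). Gstp1 (chr19:4035407-4037985, reverse strand) lies beside Gstp2. All 10 genes are protein-coding, and none shares exon bases with an overlapping gene.

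The stretches upstream of the start sites of Gstt1, Gstm2, Gstm6 and Gsta3 are shown because Gstt1, Gstm2 and Gstm6 were the 3 genes whose Sirt2-/- and Control mice did not overlap and Gsta3 was the member with a match to an antioxidant response element. The sequences are RefSeq's on GRCm38.p6, written 5′ to 3′ along the gene and ending at the RefSeq start site or at the first annotated exon base, and capitals mark a match to a searched motif.
Gstt1, 250 bases, chr10:75797732-75797981, reverse strand: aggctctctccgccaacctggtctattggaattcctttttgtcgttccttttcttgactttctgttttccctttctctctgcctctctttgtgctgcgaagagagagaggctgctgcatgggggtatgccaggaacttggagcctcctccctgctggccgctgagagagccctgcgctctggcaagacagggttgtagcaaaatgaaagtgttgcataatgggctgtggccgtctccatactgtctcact
Gstm2, 217 bases, chr3:107986454-107986670, reverse strand: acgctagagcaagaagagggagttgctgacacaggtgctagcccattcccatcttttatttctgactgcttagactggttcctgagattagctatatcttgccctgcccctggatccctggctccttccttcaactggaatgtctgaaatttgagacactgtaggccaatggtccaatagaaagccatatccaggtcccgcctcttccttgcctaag
Gstm6, 235 bases, chr3:107943750-107943984, reverse strand: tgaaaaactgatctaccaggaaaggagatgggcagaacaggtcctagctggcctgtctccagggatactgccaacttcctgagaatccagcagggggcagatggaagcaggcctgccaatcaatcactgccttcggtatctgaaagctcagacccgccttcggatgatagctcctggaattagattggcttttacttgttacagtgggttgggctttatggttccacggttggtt
Gsta3, 250 bases, chr1:21240335-21240584, forward strand: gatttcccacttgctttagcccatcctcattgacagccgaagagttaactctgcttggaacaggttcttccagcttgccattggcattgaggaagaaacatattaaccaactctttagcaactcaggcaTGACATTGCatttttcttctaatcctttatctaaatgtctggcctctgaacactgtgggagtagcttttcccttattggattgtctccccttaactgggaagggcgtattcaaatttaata

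Promoter entries were found for 9 of the 10 genes, all but Gsta4. Both strands of the 250 bases before each start site were searched for TGACNNNGC (the core of the antioxidant response element), CACGTG (E-box), TTANGTAA (D-box), TTCNNNGAA (STAT site) and TATAAA. Over all 32851 promoters of the same length, 10.2% held the first motif, 6.02% the E-box, 2.06% the D-box, 7.02% the STAT site and 12.4% the TATAAA motif. Gsta3 held TGACATTGC starting 121 bases before its start site. A TATAAA match stood 30 bases before the second of the start sites listed for Gstm1, a match to its reverse complement stood 246 bases before that of Gsta2, and a STAT match stood 128 bases before the third start site of Gstm6. The Gstm1 and Gstm6 matches lay past the first annotated exon base of their windows. None of the searched motifs was found in the windows of Gstt1, Gstm2, Gstm3, Gstm4 and Gstp1 or in the stretch shown for Gstm6.

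Levels between genes were compared in FPKM, which are scaled to gene length. Gstp1, Gsta3 and Gstm1 were the most abundant of the 10 and together held 83.4% to 94.7% of the summed FPKM of each mouse. In Control the authors' FPKM were 1856 ± 1209 for Gstp1 (SD, n = 5), 1150 ± 162.2 for Gsta3 and 1042 ± 273.7 for Gstm1, so that the spread of these 3 genes overlapped. Gstt1 followed with 186.5 ± 26.55 FPKM, then Gstm6 with 67.63 ± 10.24, Gsta4 with 56.24 ± 15.36, Gstm3 with 53.32 ± 24.36, Gsta2 with 43.76 ± 16.61, Gstm2 with 42.45 ± 6.397 and Gstm4 with 20.64 ± 2.445. From Gstm6 to Gstm2 each neighbour in this order lay within the spread of the next. The length used for a gene moves this order: with counts divided by the annotated exon length, Gsta3 had 366 FPKM in Control and fell behind Gstp1 (954) and Gstm1 (944). The summed FPKM of the 10 genes was 4518 ± 1327 in Control, 4484 ± 657.3 in CE, 5615 ± 1043 in Sirt2-/- and 5069 ± 899.4 in Sirt2-/-/CE, which are ranges that overlap.

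**Figure D1:**
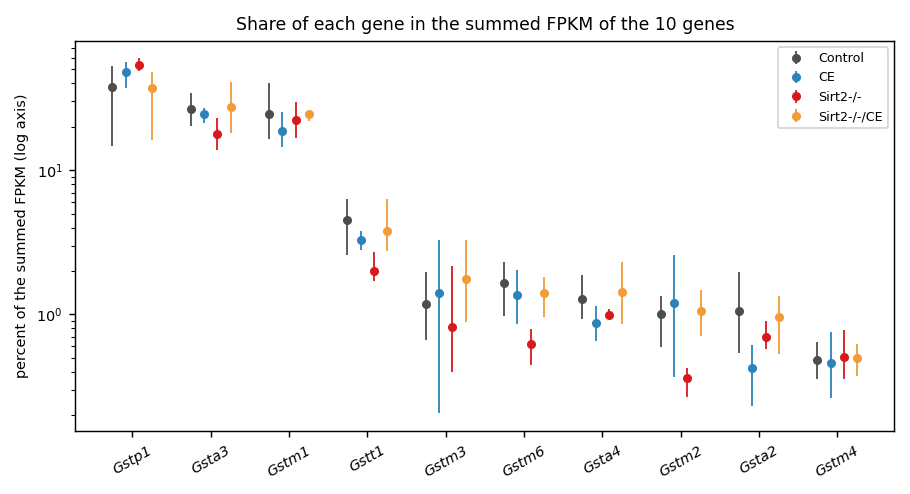
Share of each gene in the summed FPKM of the 10 genes, in percent on a log axis, with the genes ordered by their mean share. Points are group means and bars run from the lowest to the highest of 5 mice; Gstp1, Gsta3 and Gstm1 lie at the top in every group, and the Sirt2-/- means of Gstt1, Gstm2 and Gstm6 (2.01%, 0.36% and 0.619%) lie below those of the other groups.

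The question of the design was how cold exposure and loss of Sirt2, alone and together, changed the liver transcriptome. For Sirt2-/- against Control, edgeR's quasi-likelihood test called 2 of the 10 genes, Gstt1 and Gstm6, both lower, where 0.89% of all 15616 genes were called in this comparison. DESeq2, limma voom and an edgeR fit of only these 2 groups each called 3 of the 10, Gstt1, Gstm2 and Gstm6, among 607, 906 and 29 of all genes. In edgeR 3 of the 10 and 2329 of all genes had an unadjusted p under 0.05. Between these groups 3 of the 10 genes, Gstt1, Gstm2 and Gstm6, had no overlap of mice, all lower, against 3.61% of all genes. Of the 10 genes 7 had a negative and 3 a positive log2 fold change, with a median of -0.32 beside 0.02 for all genes. Gstt1, Gstm2 and Gstm6 were the only members with a negative value of more than 0.37 in size.

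Gstt1 encodes the theta enzyme that is known for its action on small halogenated compounds. Its levels were 224.6, 198.4, 235.5, 169.2 and 211.3 CPM in Control replicates 1 to 5 and 113.6, 100.2, 112.0, 131.8 and 98.46 CPM in Sirt2-/- replicates 11 to 15. Every Sirt2-/- mouse lay below every Control mouse, and the log2 fold change was -0.90 (SE 0.20). The CE mice had 189.1, 189.2, 128.8, 137.7 and 191.7 CPM and the Sirt2-/-/CE mice 261.4, 153.1, 142.4, 153.3 and 302.7 CPM. In the order of the group means, 207.8 ± 25.71 CPM in Control, 202.6 ± 74.14 in Sirt2-/-/CE, 167.3 ± 31.23 in CE and 111.2 ± 13.37 in Sirt2-/-, the first 3 overlapped each other, and CE and Sirt2-/- overlapped only through CE replicate 8 and Sirt2-/- replicate 14.

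Gstm2, a mu enzyme, had 48.95, 42.9, 57.43, 40.6 and 54.26 CPM in Control and 18.03, 17.31, 23.48, 18.96 and 24.91 CPM in Sirt2-/-. Every Sirt2-/- mouse lay below every Control mouse, and the log2 fold change was -1.25 (SE 0.35). In CE the values were 47.09, 40.4, 17.48, 67.05 and 134 CPM, so that this group reached into the Sirt2-/- range at 1 mouse and above the Control range at 2. In Sirt2-/-/CE they were 76.76, 33.45, 60.58, 53.4 and 72.19 CPM, all above the Sirt2-/- mice.

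Gstm6, another gene of the mu cluster, had 89.62, 74.38, 101.5, 76.21 and 73.76 CPM in Control and 37.37, 40.08, 44.8, 38.05 and 28.16 CPM in Sirt2-/-. The 2 groups were far apart, with a log2 fold change of -1.14 (SE 0.22). The CE mice, with 68.07, 59.37, 44.38, 93.02 and 108.9 CPM, lay on both sides of the Control mice, and CE replicate 8 lay within the Sirt2-/- range. The Sirt2-/-/CE mice had 86.45, 48.26, 102.9, 99.02 and 75.19 CPM. Means were 83.09 ± 12.15 CPM in Control, 82.37 ± 21.97 in Sirt2-/-/CE, 74.75 ± 26 in CE and 37.69 ± 6.069 in Sirt2-/-, and the first 3 overlapped.

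**Figure D2:**
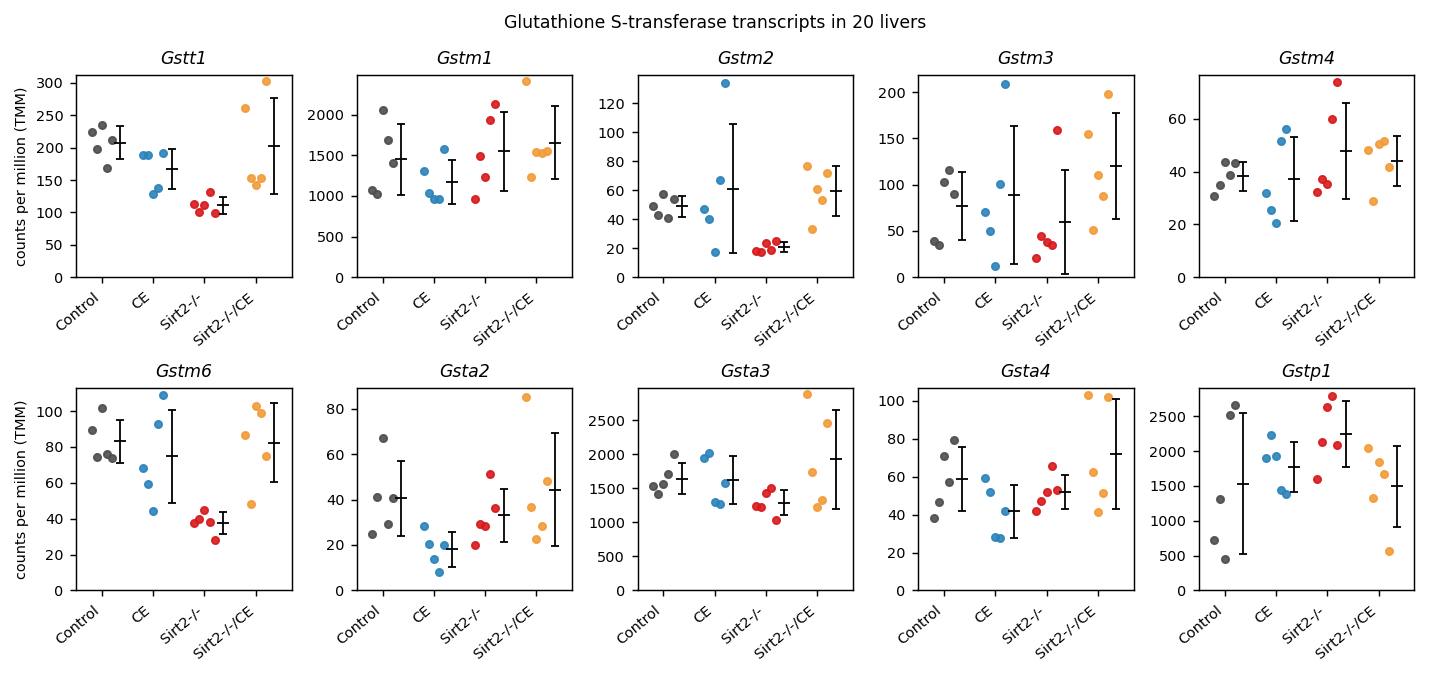
TMM-scaled CPM of the 10 genes, each on its own linear axis from 0, with 1 point per mouse in the 4 groups and the mean ± SD of 5 mice in black. The Sirt2-/- points of Gstt1 (98.46 to 131.8), Gstm2 (17.31 to 24.91) and Gstm6 (28.16 to 44.8) lie below all Control and all Sirt2-/-/CE points.

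Several measures moved with this comparison. The Control and Sirt2-/- ranges of total counts did not overlap, as given above. The sum of the 8 hepatocyte markers was 111000 to 179000 CPM in Control and 94200, 78100, 93800, 129000 and 106000 CPM in Sirt2-/-, so that 4 of the 5 knockout mice lay below every Control mouse, while 5 of the 8 had a negative fold change, 1 of them at an unadjusted p under 0.05, with a median of -0.04. Summed cholangiocyte markers (6 of 6 measured, none at 0 in every mouse) were 37.6 to 76.9 CPM in Control and 28.6 to 43.5 CPM in Sirt2-/-, with 3 of the 5 tested negative, a median of -0.03 and 1, Spp1, at such a p, and summed Kupffer cell markers were 100 to 325 and 199 to 371 CPM. Summed pancreas markers (6 genes, none at 0 in every mouse, of which 1, Cela1, passed the filter) were 12.2, 14.1, 5.21, 14.8 and 14.7 CPM in Control and 5.27, 5.18, 5.44, 5.6 and 4.83 CPM in Sirt2-/-, where 1 Control mouse lay within the Sirt2-/- range. Of 10 pericentral hepatocyte markers 7 were lower in Sirt2-/-, 1 of them at an unadjusted p under 0.05, with a median log2 fold change of -0.34 and sums of 10800 to 15200 CPM in Control and 6700 to 14000 CPM in Sirt2-/-. The 5 erythrocyte markers had negative fold changes (median -0.37, 1 at such a p, sums of 281 to 554 and 127 to 508 CPM), as did 4 of the 5 leukocyte markers tested (median -0.46, 1 at such a p, sums over all 6 of 5.58 to 14.9 and 8.22 to 12 CPM). The 6 endothelial and the 6 Kupffer cell markers had positive ones (medians 0.34 and 0.40, 0 at such a p), with endothelial sums of 48.5 to 205 and 85.1 to 238 CPM. The part of these measures in the result was not tested. The clock score was below that of every Control mouse in 3 of the 5 Sirt2-/- mice, and with this score as a covariate 0 of the 10 genes and 0 of all genes were called. The fold changes then were -0.81 for Gstt1, -1.38 for Gstm2 and -1.2 for Gstm6. The Sirt2-/- mice whose clock scores lay within the Control range, replicates 11 and 13 (5.03 and 5.44), had 113.6 and 112.0 CPM of Gstt1, 18.03 and 23.48 CPM of Gstm2 and 37.37 and 44.8 CPM of Gstm6. Replicates 14 and 15, whose scores were -2.45 and -3.21, had 131.8 and 98.46 CPM of Gstt1, 18.96 and 24.91 CPM of Gstm2 and 38.05 and 28.16 CPM of Gstm6. With the 4 mice of a score under 0 removed (CE replicate 9, Sirt2-/- replicates 14 and 15, Sirt2-/-/CE replicate 19), which was added after the data were seen, the fold changes were -0.93, -1.31 and -1.03 for Gstt1, Gstm2 and Gstm6, and 0 of all genes were called. The mice were divided by score after their values were seen, and the part of the clock score in the result was not tested. The 2 calls were also lost when Control replicate 1, 2 or 3 or Sirt2-/- replicate 12, 14 or 15 was left out. How many of all genes were called in those fits is not given here, so the loss cannot be read as particular to the members. Over the removal of each mouse in turn, the fold changes stayed between -0.97 and -0.86 for Gstt1 and between -1.21 and -1.05 for Gstm6.

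**Figure D3:**
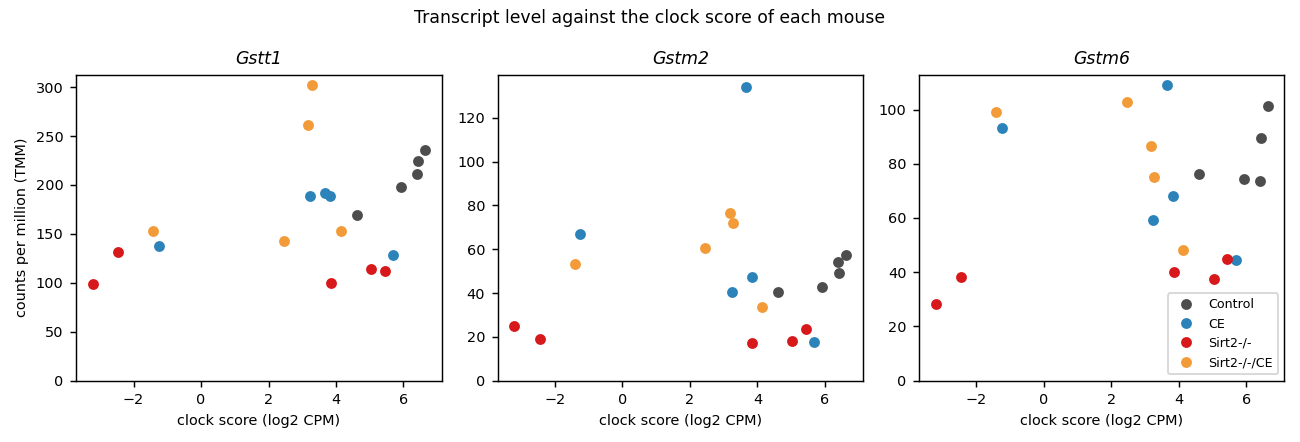
Level of Gstt1, Gstm2 and Gstm6 in CPM against the clock score (a difference of mean log2 CPM) of the same mouse, with 1 point per mouse coloured by group. The Sirt2-/- points run from a score of -3.21 to a score of 5.44, the Control points from 4.61 to 6.64.

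For Sirt2-/-/CE against Sirt2-/-, the effect of cold within the knockout, edgeR called 0 of the 10 genes and 0% of all genes, while 4 of the 10 and 1132 of all genes had an unadjusted p under 0.05. DESeq2 called 2 of the 10, Gstm2 and Gstm6, among 7 of all genes, and limma voom called 0 of the 10. Gstt1, Gstm2 and Gstm6 again had no overlap between the groups, now higher in Sirt2-/-/CE, against 0.743% of all genes. This comparison shares its Sirt2-/- mice with the one before, and low values in those mice enter both. The log2 fold changes were 0.87 (SE 0.20) for Gstt1, 1.53 (SE 0.35) for Gstm2 and 1.13 (SE 0.22) for Gstm6. Of the 10 genes 8 had a positive value, with a median of 0.52 beside 0.01 for all genes, although Gstm1 (0.09) had -0.01 when libraries were scaled by their size only, which put the median of all genes at -0.06. The 2 with a negative value were Gstm4 (-0.12, SE 0.27) and Gstp1 (-0.59, SE 0.39). Gstm4 had 0.09 without Sirt2-/- replicate 15. Its sign also turned with limma voom, with the clock score as covariate and with mice of a clock score under 0 removed. Pancreas marker sums were 6.16 to 18.9 CPM in Sirt2-/-/CE, above the 5 Sirt2-/- mice, and erythrocyte markers had a median fold change of 0.63 (0 of 5 at an unadjusted p under 0.05). Of 6 female-type liver genes tested 2 were higher at such a p (median 1.33), as were 2 of 10 pericentral hepatocyte markers (median 0.16). The 6 Kupffer cell markers had positive fold changes (median 0.32) and the 5 leukocyte markers tested negative ones (median -0.465), with 0 at such a p in both lists. The part of these measures in the result was not tested.

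For CE against Control, the effect of cold in wild-type mice, edgeR called 0 of the 10 genes and 0.0064% of all genes (1 gene), DESeq2 and limma voom called 0 of the 10 among 188 and 540 of all genes, and 1 of the 10, Gsta2, and 1674 of all genes had an unadjusted p under 0.05. None of the 10 separated the groups without overlap, where 3.04% of all genes did. The fold changes of the 3 genes above were -0.31 (SE 0.20) for Gstt1, 0.33 (SE 0.34) for Gstm2 and -0.15 (SE 0.22) for Gstm6. The sign for Gstm2 depended on 1 mouse. With CE replicate 10 left out it was -0.18, and leaving out CE replicate 8 gave 0.56, while Gstm6 had -0.33 and -0.02 with the same mice removed. The median of the 10 was -0.10 beside -0.01 for all genes. All 6 endothelial markers had negative fold changes, 2 of them at an unadjusted p under 0.05 (median -0.78), with sums of 48.5 to 205 CPM in Control and 32.4 to 148 CPM in CE. Of the 6 female-type liver genes tested 5 had negative fold changes, 3 of them at such a p (median -2.38), and the sums of all 10 were 8.12 to 226 and 3.17 to 34.1 CPM. The 5 leukocyte markers tested had negative fold changes (median -1, 0 at such a p), as had 5 of 7 stellate cell markers (median -0.51, 0 at such a p). Clock scores were 3.83, 3.24, 5.69, -1.25 and 3.66 in CE and 4.61 to 6.64 in Control. Clock, Npas2 and Arntl of that score had a median fold change of 3.06 (2 of 3 higher at such a p). Its other 5 genes had a median of -0.78 (0 at such a p). The part of these measures in the result was not tested.

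The interaction of genotype and cold, the cold effect in knockout mice minus that in wild-type mice, was called by edgeR for 0 of the 10 genes and 0% of all genes, with 5 of the 10 and 1303 of all genes at an unadjusted p under 0.05. DESeq2 called 2 of the 10, Gstt1 and Gstm6, among 41 of all genes, and limma voom called 0. The values were 1.18 (SE 0.28) for Gstt1, 1.28 (SE 0.31) for Gstm6, 1.2 (SE 0.49) for Gstm2, 1.59 (SE 0.52) for Gsta2 and 0.96 (SE 0.38) for Gsta4, and 8 of the 10 were positive. The median of 0.88 stood beside 0.00 for all genes. Of the marker lists, endothelial and erythrocyte markers had medians of 0.92 and 0.87 (0 at an unadjusted p under 0.05), and 2 of 6 female-type genes were higher at such a p. Clock, Npas2 and Arntl of the clock score had a median of -3.31 (1 of 3 lower at such a p). The other 5 genes of the score had a median of 0.78 (0 at such a p). The part of these measures in the result was not tested.

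For Sirt2-/-/CE against CE, 0 of the 10 genes and 0.0128% of all genes (2 genes) were called by edgeR, 0 of the 10 by DESeq2 and limma voom (31 and 2 of all genes), and 2 of the 10, Gsta2 and Gsta4, and 951 of all genes had an unadjusted p under 0.05. Of the 10 genes 8 had a positive value, with a median of 0.26 beside 0.02 for all genes, but limma voom gave negative values for Gstt1 and Gsta3 (-0.08 and -0.17 in place of 0.28 and 0.25), and scaling by library size only turned the sign for Gstm2. No member separated these groups, against 1.22% of all genes. Summed endothelial cell markers (6 of 6 measured, none at 0 in every mouse) were 32.4 to 148 CPM in CE and 156 to 252 CPM in Sirt2-/-/CE, and all 6 were higher at an unadjusted p under 0.05, with a median log2 fold change of 1.34. Summed Kupffer cell markers were 94.9 to 364 and 258 to 425 CPM, and 4 of the 6 tested were higher at such a p. Of 6 female-type liver genes tested 3 were higher (median 2.63) and of 10 pericentral markers 2 were lower (median -0.35) at such a p. The part of these genes in the result was not tested. For Sirt2-/-/CE against Control, 0 of the 10 and 0.122% of all genes (19 genes) were called by edgeR, 0 of the 10 by DESeq2 and limma voom (237 and 340 of all genes) and 0 of the 10 at an unadjusted p under 0.05 (1744 of all genes), and none separated the groups, against 2.71% of all genes. In that comparison the values of Gstt1, Gstm2 and Gstm6 were -0.04 (SE 0.20), 0.28 (SE 0.34) and -0.01 (SE 0.22), and scaling by library size only, which put the median of all genes at 0.10, turned the sign for Gstt1 and Gstm6. The clock scores of the Sirt2-/-/CE mice (at most 4.14) all lay below those of the Control mice (at least 4.61), and 3 of 3 genes of the Arntl arm of the score were higher at an unadjusted p under 0.05. Kupffer cell markers had a median of 0.68 (2 of 6 higher at such a p), endothelial markers of 0.52 (0 at such a p), leukocyte markers of -1.11 (1 lower at such a p) and cholangiocyte markers of -0.38 (2 lower at such a p). The part of these measures in the result was not tested. The difference between knockout and wild-type mice averaged over both treatments was called by edgeR for 0 of the 10 genes and 0.186% of all genes (29 genes), with 3 of the 10 and 2160 of all genes at an unadjusted p under 0.05. limma voom called 1 of the 10, Gstt1, among 263 of all genes, and DESeq2 0 of the 10 among 317. The averaged log2 fold changes were -0.31 (SE 0.14) for Gstt1, -0.65 (SE 0.24) for Gstm2 and -0.50 (SE 0.16) for Gstm6. Of the 10 genes 6 had a positive value, among them Gsta2 (0.50), Gsta4 (0.31) and Gstm1 (0.30). Leaving out CE replicate 10 put Gstm2 at -0.40, and leaving out Sirt2-/-/CE replicate 16 put Gsta2 at 0.30. For this average the median of the 10 was 0.10 beside 0.02 for all genes, and scaling by library size only, with a median of 0.14 for all genes, turned the sign for Gsta3. In this average 6 of 6 endothelial markers (median 0.82) and 5 of 6 Kupffer cell markers (median 0.59) were higher and 3 of 10 pericentral markers lower (median -0.21) at an unadjusted p under 0.05. Clock, Npas2 and Arntl of the clock score had a median of 1.6 (2 of 3 higher at such a p). The other 5 genes of the score had a median of -0.57 (0 at such a p). The part of these measures in the result was not tested.

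**Figure D4:**
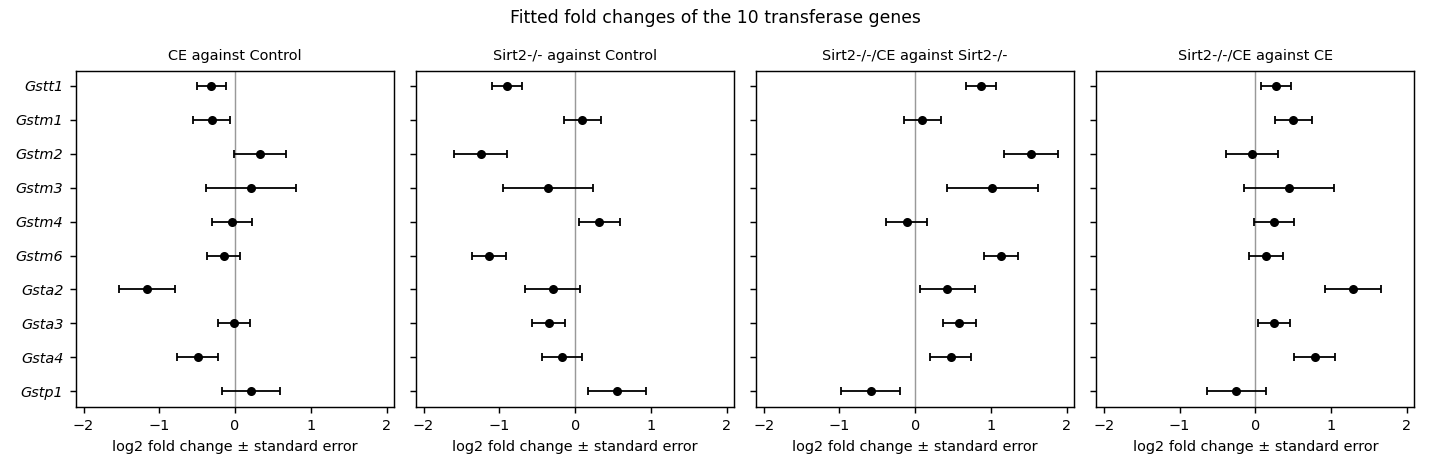
Fitted log2 fold changes of the 10 genes with their standard errors in 4 comparisons of 5 against 5 mice. Gstt1, Gstm2 and Gstm6 lie furthest below 0 in the second panel (-0.90, -1.25 and -1.14) and among the highest in the third (0.87, 1.53 and 1.13), and the panels share groups.

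The other mu genes were Gstm1, Gstm3 and Gstm4. Gstm1 had 1067, 1025, 2060, 1690 and 1403 CPM in Control, 1301, 1039, 962.9, 961.2 and 1580 in CE, 962, 1488, 1231, 1932 and 2129 in Sirt2-/- and 2417, 1233, 1545, 1524 and 1548 in Sirt2-/-/CE. All groups overlapped, and its log2 fold change for Sirt2-/- against Control was 0.10 (SE 0.24), which was -0.05 without Sirt2-/- replicate 15, 0.25 without Control replicate 3 and -0.18 with the clock score as covariate. Gstm4 lay between 20.7 and 74.1 CPM in all mice, and its fold change in that comparison was 0.32 (SE 0.27), which fell to 0.10 without Sirt2-/- replicate 15 and turned to -0.28 with the clock score as covariate. Gstm3 varied widely between mice of a group. It ranged from 35.18 to 115.6 CPM in Control (median 90.17), from 12.25 to 208.6 in CE (median 70.63), from 21.09 to 159.3 in Sirt2-/- (median 37.8) and from 51.4 to 197.7 in Sirt2-/-/CE (median 110.1). Of the Sirt2-/- mice, replicate 15 had 159.3 CPM and the other 4 had 21.09 to 44.74 CPM. Without that mouse the fold change for Sirt2-/- against Control was -1.14 in place of -0.36 (SE 0.60). Of the 100-base stretches of Gstm3 exons, 13.8% also occur in another gene, so that its counts are uncertain, whereas 1.1% of those of Gstm6, 0.357% of those of Gstm2 and none of those of Gstt1 do. Gstm3, which shares those stretches of Gstm6, held 21.6% to 85% of the counts assigned to the pair. The measured genes that share stretches of Gstm3, Gstm1 among them, held 89% to 98.8% of their joint counts with it. How many reads were misassigned was not tested.

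Of the alpha genes, Gsta2 and Gsta4 had their lowest group means in CE and Gsta3 in Sirt2-/-. Gsta2, an enzyme known to rise after exposure to electrophiles, had 24.62, 40.9, 67.2, 29.2 and 40.77 CPM in Control and 28.26, 20.46, 13.75, 7.932 and 20.08 CPM in CE. The groups overlapped, and the log2 fold change was -1.16 (SE 0.37). It had 19.96 to 51.11 CPM in Sirt2-/- and 22.53 to 85.23 CPM in Sirt2-/-/CE, where replicate 16 was highest and the fold change against CE was 1.29 (SE 0.37), or 0.91 without that mouse. Of its 100-base stretches 28.4% occur in another gene of the alpha cluster, Gsta1 and Gm10639 among them, so its counts are uncertain.

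Gsta4, which acts on 4-hydroxynonenal, an aldehyde of lipid peroxidation, had means of 58.61 ± 16.92 CPM in Control, 41.67 ± 14.16 in CE, 51.99 ± 8.817 in Sirt2-/- and 71.89 ± 28.84 in Sirt2-/-/CE. Its log2 fold changes were -0.49 (SE 0.27) for CE against Control and 0.79 (SE 0.27) for Sirt2-/-/CE against CE, and all groups overlapped. Gsta3, the main alpha enzyme of mouse liver and known for its action on the epoxide of aflatoxin, had 1642 ± 226.1 CPM in Control, 1621 ± 349.7 in CE, 1287 ± 183.3 in Sirt2-/- and 1926 ± 724 in Sirt2-/-/CE. In Sirt2-/-/CE, replicates 16 and 20 had 2883 and 2462 CPM and the other 3 had 1221 to 1742 CPM. Its fold change was -0.35 (SE 0.21) for Sirt2-/- against Control and 0.58 (SE 0.21) for cold within the knockout.

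Gstp1, the pi enzyme, had 724, 1313, 449.5, 2517 and 2663 CPM in Control, 1895, 2233, 1924, 1443 and 1383 in CE, 1598, 2135, 2629, 2791 and 2085 in Sirt2-/- and 2045, 1334, 1839, 1677 and 567.7 in Sirt2-/-/CE. Control held both the lowest mouse of the study and values near the highest, and all groups overlapped. The log2 fold change was 0.55 (SE 0.39) for Sirt2-/- against Control, or 0.31 with Control replicate 3 and 0.84 with Control replicate 5 left out. The summed level of 10 male-type liver genes, which include Mup20 and Elovl3, was 1460 CPM in Control replicate 3 and 948 CPM in Sirt2-/-/CE replicate 20, the 2 mice with the lowest Gstp1, and 4130 to 11600 CPM in the other 18 mice. The sum of 10 female-type genes was 226 and 1070 CPM in those 2 mice and at most 80.4 CPM in the others. With these 2 mice removed, which was added after the data were seen, the fold changes of Gstp1 were 0.31 for Sirt2-/- against Control and -0.38 for cold within the knockout, and Gstt1 and Gstm6 had -0.86 and -1.07 for Sirt2-/- against Control and were no longer called. In that comparison 29 of all genes were called without these mice, against 139 with them. Of the 100-base stretches of Gstp1, 25.1% occur in Gstp2 or in the pseudogene Gstp-ps, and these genes held 10.5% to 13.7% of the counts assigned to the 3 together.

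**Figure D5:**
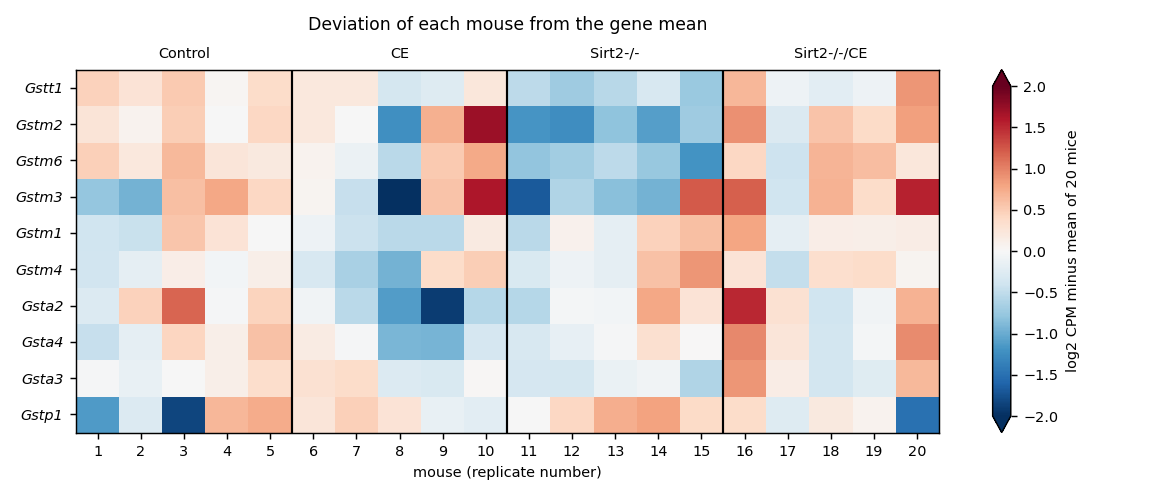
Log2 CPM of each gene in each mouse minus the mean over the 20 mice, with mice numbered by replicate and vertical lines between groups; colours are capped at -2 and 2. The rows of Gstt1, Gstm2 and Gstm6 are blue across the 5 Sirt2-/- mice, while Gstp1 is lowest in Control replicate 3 and Sirt2-/-/CE replicate 20 and Gstm3 differs between mice of the same group.

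Over the 45 pairs of members, Pearson's r of log2 CPM across the 20 libraries ranged from -0.55 to 0.88 with a median of 0.29, as a description of libraries that share their groups, and 10 pairs were negative. The highest were Gstm2 with Gstm6 (r = 0.882, Spearman's rho = 0.859, r = 0.753 with group means removed) and Gsta2 with Gsta4 (r = 0.882, rho = 0.838, and 0.858 with group means removed). Gstm2 with Gstm3 gave 0.76 and Gstt1 with Gsta3 gave 0.805, although the members of that last pair lie on different chromosomes. Gstp1 was negatively related to Gstt1 (r = -0.554, rho = -0.451, and -0.376 with group means removed).

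Among 10568 tested genes outside the family with a mean of at least 1 FPKM, the gene whose pattern over the 20 libraries was most like that of a member, by Pearson's r of log2 CPM, was Ebpl for Gstt1 (r = 0.908, rho = 0.925), Aldh1a7 for Gstm2 (r = 0.855, rho = 0.829) and Aadac for Gstm6 (r = 0.827, rho = 0.729). With group means removed the r of these pairs was 0.797, 0.734 and 0.584. For the other mu genes it was Nqo1 with Gstm1 (0.80), Pecr with Gstm3 (0.809) and Mnat1 with Gstm4 (0.83). For the alpha genes it was Vdac2 with Gsta2 (0.827), Cyb5a with Gsta3 (0.93) and, for Gsta4, a gene that the authors predicted outside the annotation (0.891). For Gstp1 it was the feature that the table names WI1-1003N17.1 (0.993), which is the pseudogene Gstp-ps in the annotation and shares 10.8% of the 100-base stretches of Gstp1, and the next was Mup20 (0.883), a male-type liver gene.

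Of 23 other genes of the family and its relatives, 20 were matched in the table and 16 passed the filter, and edgeR called 0 of the 16 in each of the 7 comparisons, with 0 to 4 at an unadjusted p under 0.05. In Sirt2-/- against Control, 2 of the 16 had an unadjusted p under 0.05, both lower. There DESeq2 called 0 of the 16 among 607 of all genes and limma voom called 2 among 906, Gstm7 and Gstz1, which are named after their values were seen. In the other comparisons both tools called 0. Gstm7, the neighbour of Gstm6 in the mu cluster, had 49.4 ± 12 CPM in Control, 46.1 ± 13.8 in CE, 31.7 ± 7.94 in Sirt2-/- and 48.6 ± 13.3 in Sirt2-/-/CE, and its log2 fold change of -0.64 (SE 0.24) did not pass edgeR's test (adjusted p = 0.198). Gstz1, an enzyme of tyrosine breakdown whose exons overlap those of Pomt2 on the other strand, had 666 ± 42.4 CPM in Control and 532 ± 72.7 CPM in Sirt2-/- (adjusted p = 0.187 from edgeR). Gstt3, the neighbour of Gstt1, shares exon bases with Gm20441 and had 56.6 ± 20.7 CPM in Control and 64.3 ± 42 CPM in Sirt2-/-, a fold change of 0.18 (SE 0.44). The median fold change of the 16 genes was -0.22 (0.02 for all genes) in the comparison of Sirt2-/- with Control, and 0.33 (0.01 for all genes) with cold in the knockout. Mgst1, the membrane-bound enzyme, was the most abundant of them, with 2740 ± 183 CPM in Control and 2440 ± 379 in Sirt2-/-.

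The genes that supply glutathione and remove its conjugates were described from lists. Counts of these and the following lists for Sirt2-/- against Control stand beside 2329 of all 15616 genes with an unadjusted p under 0.05. Of all genes in that comparison edgeR called 139, DESeq2 607 and limma voom 906. Of the 24 genes of glutathione synthesis and recycling 20 passed the filter, and edgeR called 0 in every comparison, with 0 to 6 at an unadjusted p under 0.05. In Sirt2-/- against Control 6 of the 20 had such a p, of which 5 were higher, DESeq2 and limma voom each called 1, the glutaredoxin gene Glrx (0.63, SE 0.18, adjusted p = 0.0888 from edgeR), and DESeq2 also called it for Sirt2-/-/CE against Control, and the median was 0.12 beside 0.02 for all genes. Gclc and Gclm, the subunits of the rate-limiting enzyme of glutathione synthesis, had fold changes of 0.09 (SE 0.25) and 0.13 (SE 0.14), and Gsr, which reduces oxidized glutathione, 0.30 (SE 0.11, adjusted p = 0.214 from edgeR). Of 14 genes of mercapturic acid formation and conjugate export, 0 were called by edgeR in each comparison, with 1 to 2 at an unadjusted p under 0.05, and for Sirt2-/- against Control both of these were lower. There DESeq2 called 1, Nat8, which acetylates cysteine conjugates (-2.34, SE 0.68), and limma voom called 1, Abcc6. Abcc2, the canalicular exporter of glutathione conjugates, had a fold change of -0.07 (SE 0.31).

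Of 22 regulators known to act on these genes, edgeR and DESeq2 called 0 in each comparison, with 0 to 4 at an unadjusted p under 0.05 in edgeR, and limma voom called 1, Arnt, for Sirt2-/-/CE against Control. For Sirt2-/- against Control the fold changes were 0.07 (SE 0.15) for Nfe2l2, which encodes Nrf2, 0.06 (SE 0.11) for Keap1, its inhibitor, -0.02 (SE 0.33) for Nr1i3, which encodes CAR, and -0.05 (SE 0.22) for Nr1i2, which encodes PXR. Of 15 targets of Nrf2 outside the family, 4 had an unadjusted p under 0.05 in that comparison, beside 2329 of all 15616 genes. Of these 4, 2 were higher (Srxn1 and Ephx1) and 2 lower (Pgd and Tkt). Among 139 of all genes edgeR called 1, Srxn1, which reduces oxidized peroxiredoxins and is named after its values were seen. Its level was higher in Sirt2-/- (log2 fold change 1.01, SE 0.23, adjusted p = 0.043 from edgeR), and edgeR called 0 of the 15 in the other comparisons, with 0 to 8 at an unadjusted p under 0.05. DESeq2 and limma voom called Srxn1 and Ephx1 for Sirt2-/- against Control, Ephx1 in the average over both treatments and none of the 15 in the other comparisons. The 8 with such a p were for cold within the knockout, 4 higher and 4 lower, with a median of -0.06 beside 0.01 for all genes. In that comparison 1132 of all 15616 genes had such a p. Nqo1, another target of Nrf2, had a fold change of 0.24 (SE 0.38) in Sirt2-/- relative to Control. Of 14 targets of CAR and PXR outside the family, edgeR called 0 in each comparison, with 0 to 4 at an unadjusted p under 0.05, of which 2 were for Sirt2-/- against Control, both lower. DESeq2 called Aldh1a7 and Ces2a there, and limma voom Aldh1a7. Aldh1a7, of this list, had a fold change of -0.91 (SE 0.24, adjusted p = 0.0726 from edgeR), and the median of the 14 was -0.32 beside 0.02 for all genes.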

How the data were processed

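Liver mRNA of 20 mice was enriched with oligo(dT), copied from random hexamers and sequenced on an Illumina NovaSeq instrument. The authors deposited whole-number read counts per gene and FPKM values, which are scaled to gene length and depth. The genome build is given as mm10 in the submitters' processing notes, while the aligner, the counter and the handling of strand are not given in the sources used here. The 9 lines without a gene were left out, and 0 columns were unused. Groups came from the labels, which do not say whether mice shared a cage or litter, so p-values measure the spread between these mice.

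Counts were scaled by TMM and filtered with filterByExpr (minimum count 10, minimum total 15). edgeR 4.0.16 (R 4.3.3) fitted a quasi-likelihood model to all 20 libraries with group as the only term, and 7 contrasts were tested two-sided, with Benjamini-Hochberg adjustment over 15616 genes and a threshold of 0.05. The contrasts share groups. log2 CPM used a prior count of 2. The self-test ran on simulated counts. Alternatives were DESeq2 1.42.0, limma 3.58.1 (voom with sample weights, and log2 FPKM with a pseudocount of 1), library size only, upper-quartile scaling, no filter, the clock score as covariate, a fit of only the 2 groups compared, FPKM from annotated exon lengths, and the removal of each mouse.

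The members, and the lists of other genes, were chosen with earlier results of these data known. Genes named are the members, Sirt2, genes of the family, glutathione synthesis, mercapturic acid or regulator lists with an adjusted p under 0.05, and for each member the most similar gene outside the family, and others are named for their known role or after their values were seen. Positions came from GENCODE vM21. Depth of 35499796 to 53917339 counts and 5 mice per group set the precision. Figures were drawn with matplotlib 3.10.9.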

Additional observations from a re-analysis of the deposited data

Results flagged for a closer look

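Of 40 sets of 5 mice (10 genes in 4 groups), 2 held a mouse far from the other 4 by Dixon's criterion, where chance flags about 1 in 20. Gstm1 was 2420 CPM in Sirt2-/-/CE replicate 16, a gap of 0.733 of the range of its group, in the mouse that also had the highest Gsta2, Gsta3 and Gsta4 of its group and, with 0.948, the lowest mean rank correlation with its own group of all libraries. Gstm3 was 159 CPM in Sirt2-/- replicate 15, a gap of 0.829 of the range of its group.

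The cold effect on Gstt1 in Sirt2-/- mice minus that in wild-type mice was 1.18 on the log2 scale (SE 0.28). It was picked out because every CE mouse lay below the Control mean and every Sirt2-/-/CE mouse lay above the Sirt2-/- mean. edgeR's interaction test did not call it (0 of all genes called, 1303 at an unadjusted p under 0.05), DESeq2 called it among 41 genes and limma voom did not.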

How the results depend on the processing

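The number of members called for Sirt2-/- against Control, 2 with edgeR, was 3 with DESeq2, with limma voom and with only the 2 groups, 1 with upper-quartile scaling, 1 with no filter on low counts, 0 with the clock score as covariate, 0 with mice of a clock score under 0 removed and 0 with mice of a male-type sum under 2000 CPM removed, and between 0 and 3 when each mouse was left out in turn. Without Control replicate 5, CE replicate 7 or Sirt2-/- replicate 11 it was 1. The counts of all genes called with a mouse left out are not given here. DESeq2 called 2 members for Sirt2-/-/CE against Sirt2-/- and 2 for the interaction, and limma voom called 1 for the average over both treatments and 2 other family genes for Sirt2-/- against Control. All genes called in this last comparison numbered 139 with edgeR, 607 with DESeq2, 906 with limma voom, 419 with library size only, 329 with log2 FPKM, 110 with upper-quartile scaling, 35 with no filter and 29 with only the 2 groups. They numbered 29 with mice of a low male-type sum removed, and 0 with the clock score as covariate or with mice of a score under 0 removed. The cause of these differences was not tested. Scaling by library size moved the median of all genes to 0.158 in that comparison, so members are to be read against it, and there Gstt1, Gstm2 and Gstm6 had -0.77, -1.1 and -1.01. Of 680 fold changes of members under other settings, 672 moved by less than 1 SD between mice and 8 by more. With a mouse left out, 1400 of 1400 moved by less, but leaving out 1 of 5 mice can hardly move a group mean by 1 SD. That count therefore does not measure stability, and Gstm3 for Sirt2-/- against Control went from -0.36 to -1.14 without Sirt2-/- replicate 15. In both sets none of those called changed sign. Of the 70 fold changes of members over all comparisons, sizes up to 0.32 among them, 12 had the other sign with the clock score as covariate, 10 with limma voom, 7 with mice of a clock score under 0 removed, 6 with library size only, 6 with log2 FPKM, 4 with mice of a low male-type sum removed, 1 with upper-quartile scaling and 0 with DESeq2 or no filter. No paired analysis was possible because replicate numbers are not shared between groups. With 5 mice per group, differences within the spread between mice were not detectable.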
